A study of Mus musculus with 2 samples.

Results

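The genes for detecting double-stranded RNA and passing on the signal, 10 in number, were followed in cardiac myofibroblasts of mouse, the matrix-secreting fibroblasts of injured heart. They were taken from the deposited count table by symbol (Ddx58, Ifih1, Dhx58, Tlr3, Zbp1, Eif2ak2, Adar, Mavs, Tbk1 and Irf3), and all 10 were found, as protein-coding genes, among its 24532 genes. One library came from cells given an siRNA against Bcat1 (siBcat1) and one from cells given a control siRNA (siControl), at 12.5 nM in each case, and both cultures were kept for 72 hours. The cells of both libraries were from C57BL/6 mice and had been isolated at day 3 after an infarction; the labels do not state how many animals gave cells, or their age. Bcat1 encodes the cytosolic aminotransferase of branched-chain amino acids.

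Each group had 1 library, so there was no spread between replicates, no test was made, and every difference below compares these 2 libraries. Both groups carried a transfected siRNA, itself a short double-stranded RNA, and no untransfected cells were part of the comparison. Each group had 1 siRNA, so a lower level of Bcat1 and any other property of that siRNA cannot be told apart. In RNA from whole cultures, fewer cells of a type and less RNA per cell cannot be told apart either.

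Cells recognise double-stranded RNA, a by-product of viral replication, through several kinds of protein. The cytosolic helicases RIG-I (Ddx58) and MDA5 (Ifih1) signal through the mitochondrial adaptor MAVS to the kinase TBK1, which phosphorylates the transcription factor IRF3 and so starts transcription of type I interferon. Interferon in turn raises the expression of many of the sensors themselves, through a factor that binds interferon-stimulated response elements in their promoters. RIG-I, MDA5 and TLR3 are used by fibroblasts as well as by immune cells.

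Depth was 104581819 counts with siBcat1, where 14940 genes were detected, and 127309329 counts with siControl, where 15575 were. Bcat1 had 99 counts with siBcat1 and 8891 with siControl, a log2 fold of -6.11 [-6.41 to -5.83]. Brackets give exact 95% intervals of counting error only; reads amplified by PCR are not independent, so the intervals are too narrow to that extent. They also treat the deposited values as direct counts of reads, which the sources do not state. CPM are counts after scaling to equal library size, and log2 folds set siBcat1 over siControl. All 11 fibroblast and myofibroblast markers were measured in both libraries, including Col1a1, Vim and Acta2, and summed to 22103 CPM with siBcat1 and 35398 CPM with siControl. In CPM the largest falls were those of Col1a1 (4345 with siBcat1, 11058 with siControl) and Col1a2 (3919 with siBcat1, 9535 with siControl). Vim (6985 CPM with siBcat1, 4724 with siControl) and Thy1 (141 CPM with siBcat1, 90.9 with siControl) were higher with siBcat1. On the deposited TPM scale, Vim had 5566 with siBcat1 and 5343 with siControl, and Thy1 118 with siBcat1 and 109 with siControl. Folds also followed transcript length, as described below. With that trend removed, the log2 folds of Col1a1 and Col1a2 went from -1.35 and -1.28 to -0.63 and -0.67. On that basis Vim had 0.43 and Thy1 0.32. Of 12 macrophage and monocyte markers, 5 were listed at 0 in both libraries, among them Ptprc, Adgre1 and C1qa, and the list summed to 29.0 CPM with siBcat1 and 10.5 CPM with siControl. Most of this difference lay in Lyz2, with 21.3 CPM with siBcat1 and 5.46 CPM with siControl. Cardiomyocyte markers summed to 10.5 CPM with siBcat1 and 46.4 CPM with siControl, nearly all of it from Tnnt2, and Myh6, Ryr2 and Nppa were listed at 0 in both libraries. Endothelial markers summed to 51.2 CPM with siBcat1 and 48.7 CPM with siControl, and markers of smooth muscle and pericytes to 47.9 CPM with siBcat1 and 53.7 CPM with siControl. Most of the first sum was Tek (32.0 CPM with siBcat1, 33.9 with siControl) and most of the second Cnn1 (39.1 with siBcat1, 39.6 with siControl). Other markers went both ways. Emcn had 6.92 CPM with siBcat1 and 2.95 with siControl, Cdh5 had 3.01 and 4.81, and Cspg4 had 1.13 and 5.07. Lymphocyte and dendritic cell markers summed to under 0.1 CPM in each library. The part of these differences in the values below was not tested.

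The reference promoters of the genes are shown first where they hold the letters of an interferon-stimulated response element, because that element links several of these genes. Windows of 250 bases before to 50 bases after the gene's start (RefSeq, GRCm38.p6) were available for 8 of the 10 genes; those of Dhx58 and Zbp1 were not used here. The letters searched on both strands were a pair of GAAA repeats with any 2 bases between them, and a shorter form with any 1 base between them, which was added after the sequences had been read. The forms cannot match at the same start on 1 strand but can overlap. Each line below runs 5′ to 3′ on the strand of the gene, and capitals mark the match.

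Ddx58, chr4:40239867-40239896, minus strand, match at bases -60 to -52: gtctaggttcaGAAACGAAActggatcccc
Ddx58, chr4:40239804-40239833, minus strand, match at bases 3 to 12, read on the other strand: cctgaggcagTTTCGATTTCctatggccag
Ifih1, chr2:62646206-62646235, minus strand, match at bases 33 to 42: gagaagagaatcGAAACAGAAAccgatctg
Eif2ak2, chr17:78882535-78882564, minus strand, match at bases 19 to 28: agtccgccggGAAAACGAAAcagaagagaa
Adar, chr3:89730735-89730764, plus strand, match at bases 29 to 37: gccttttcaagGAAACGAAAgtgaactctg

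The 2-base form was found in the windows of Ddx58, Ifih1 and Eif2ak2, and the 1-base form in those of Ddx58 and Adar. The Adar match lay at the third of its 3 annotated starts and not at the other two. The windows of Tlr3, Mavs, Tbk1 and Irf3 held neither. Of all 32851 promoters in the table, 3.44% held the 2-base form and 3.17% the 1-base form. Counted by gene, as the members are here, the shares were 3.99% and 3.70% of 27025 genes. These matches are letters in a window and not sites shown to be bound.

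All 5 sensors had higher scaled counts with siBcat1, with log2 folds from 0.21 to 2.41, although the smallest, that of Tlr3, had the opposite sign with TPM. Zbp1 and Dhx58 were at least 2-fold higher, and Ddx58 and Ifih1 were about 1.5-fold higher. The adaptor Mavs was lower with siBcat1. In scaled counts, Eif2ak2 and Adar lay near the median of all genes, and Tbk1 and Irf3 lay about 0.5 above it.

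A mean of 5 CPM or more was reached by 9935 genes, and of these 5.58% had a 2-fold or larger difference upward with siBcat1 and 13.0% downward. Of the 10 members, 2 were past 2-fold upward and none downward. All 10 passed the minimum of 5 CPM, but Zbp1 and Dhx58 were below 5 CPM with siControl and passed through their level with siBcat1, so the count is a description only. The median log2 fold of the members was 0.48, against -0.06 over all 9935 genes. The median of all genes depends on the scaling: upper-quartile factors shift it by 0.13, and log2(TPM + 1) by -0.46. TPM is the authors' abundance per transcript length and library size. Folds are therefore also given relative to the median of all genes under the same scaling.

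The share of all genes past 2-fold changed with the scale, and the members are read against it. At 1.5-fold 3 members were past the limit upward, against 17.6% of genes, and none downward, against 25.6%. At 3-fold 1 member (Zbp1) was, against 0.946% of genes, and none downward, against 4.55%. With DESeq2 size factors 2 members were past 2-fold upward, against 5.6% of genes, and none downward, against 13.0%. Zbp1 and Dhx58 were also the 2 past it with library totals, where 3.94% of genes were upward and 15.0% downward, and with upper-quartile factors, where 8.21% were upward and 10.3% downward. On the log2(TPM + 1) scale only Zbp1 was, against 0.976% of genes, and no member was downward, against 24.1%. On the log2(TPM + 0.1) scale Zbp1 was again alone upward, against 1.08%, and Mavs was downward, against 28.8% of genes.

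**Figure D1:**
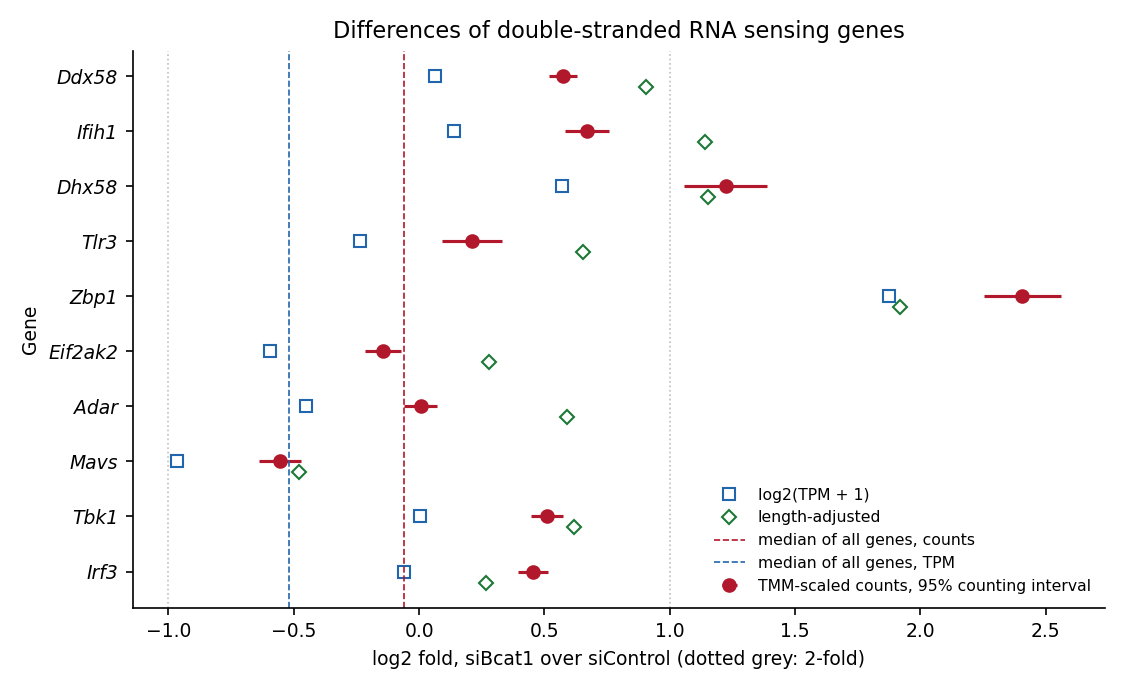
Log2 fold of siBcat1 over siControl (horizontal axis) for each gene (rows), from scaled counts with 95% counting intervals (filled circles), from log2(TPM + 1) (squares) and after removal of the trend on transcript length (diamonds), with the medians of all genes as dashed lines. Zbp1 has the highest value on all 3 scales and Mavs the lowest.

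Zbp1 encodes a sensor of left-handed (Z-form) nucleic acid that can trigger necroptosis (chromosome 2, 173206612 to 173218923, minus strand, GRCm38). It (Entrez Gene 58203) had 1789 counts with siBcat1 and 438 with siControl, which is 17.7 CPM with siBcat1 against 3.33 CPM with siControl. The log2 fold was 2.41 [2.25 to 2.56], a 5.30-fold difference, and only 0.332% of the genes tested had a value as high or higher. On the TPM scale it had 27.5 with siBcat1 and 6.75 with siControl. In the order of TPM levels among the 10 genes it was in place 2 with siBcat1 and in place 7 with siControl, a larger shift than for any other member.

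Dhx58 encodes LGP2, a helicase of the RIG-I family that lacks the signalling domains and modulates its relatives (chromosome 11, 100694884 to 100704271, minus strand). It (Entrez Gene 80861) had 833 counts with siBcat1 and 463 with siControl, or 8.22 CPM with siBcat1 against 3.52 CPM with siControl. The log2 fold was 1.22 [1.06 to 1.39], and 2.54% of genes were as high or higher. Its TPM was 4.98 with siBcat1 and 3.03 with siControl, and on the log2(TPM + 1) scale the difference was 0.57, under 2-fold, or 1.09 above the median of all genes on that scale. It had the second highest fold of the members under each of the 4 count scalings.

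The 2 signalling helicases had similar folds. Ddx58 (Entrez Gene 230073, chromosome 4, 40203773 to 40239828, minus strand), the sensor of short and 5′-triphosphate RNA, had 5665 counts with siBcat1 and 4940 with siControl, or 55.9 CPM with siBcat1 against 37.6 CPM with siControl. Ifih1 (Entrez Gene 71586, chromosome 2, 62595798 to 62646255, minus strand), the sensor of long duplexes, had 2371 counts with siBcat1 and 1933 with siControl, or 23.4 CPM with siBcat1 against 14.7 CPM with siControl. Their log2 folds were 0.57 [0.52 to 0.63] and 0.67 [0.58 to 0.76], which lie either side of 1.5-fold, with 18.0% and 14.4% of genes as high or higher. The difference of these 2 folds was -0.10 [-0.20 to 0.01], Ddx58 less Ifih1, an interval that includes 0. In TPM the helicases differed little between libraries, with 16.5 with siBcat1 and 15.8 with siControl for Ddx58 and 6.20 with siBcat1 and 5.54 with siControl for Ifih1. Relative to the median of all genes on the log2(TPM + 1) scale, Ddx58 was 0.58 higher and Ifih1 0.66 higher.

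Tlr3 encodes the receptor that detects double-stranded RNA in endosomes (chromosome 8, 45395665 to 45411080, minus strand). It (Entrez Gene 142980) had 1104 counts with siBcat1 and 1237 with siControl, or 10.9 CPM with siBcat1 against 9.41 CPM with siControl, with a log2 fold of 0.21 [0.09 to 0.33] that had the opposite sign with log2(TPM + 1) (-0.24). Relative to the median of all genes it was 0.27 in scaled counts and 0.28 with log2(TPM + 1), and it was above that median in each of the 8 settings. A value as high or higher was held by 35.6% of genes. Its TPM, 3.68 with siBcat1 and 4.51 with siControl, was the lowest of the members with siBcat1, and Dhx58 was the lowest with siControl.

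**Figure D2:**
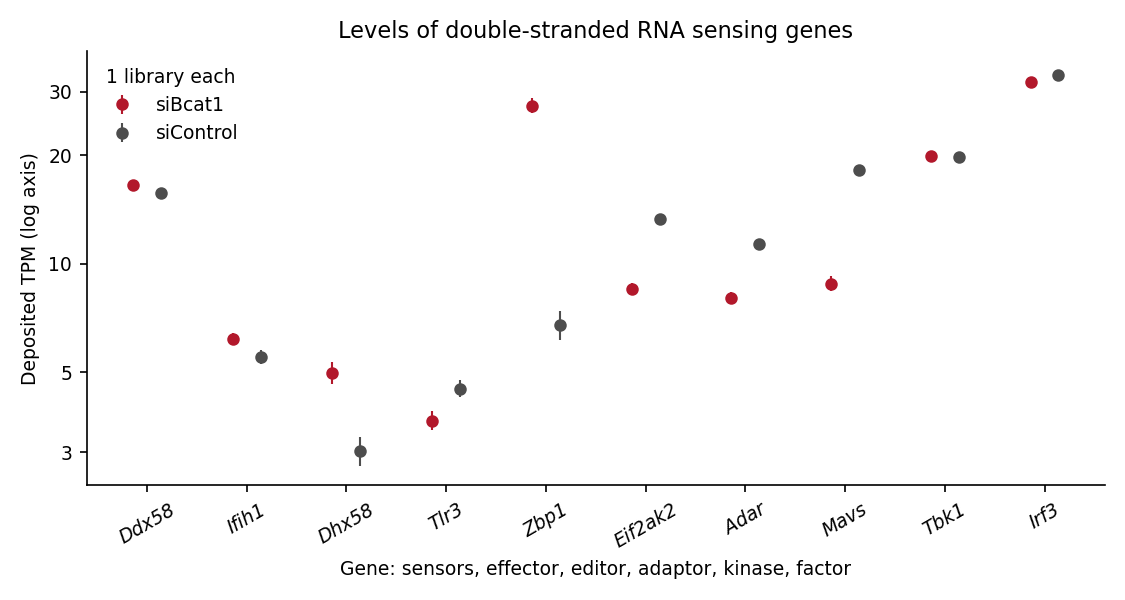
Deposited TPM (vertical log axis) of each gene (horizontal axis) in the siBcat1 library (red, left) and the siControl library (grey, right); bars are 95% counting intervals and each point is 1 library. Zbp1 stands at 27.5 TPM with siBcat1 and 6.75 with siControl, whereas Irf3 and Tbk1 stand at nearly equal TPM in both.

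Eif2ak2 and Adar encode proteins that bind double-stranded RNA and act by other routes. Eif2ak2 encodes PKR, the kinase that halts translation by phosphorylating eIF2alpha (chromosome 17, 78852564 to 78882573, minus strand). It (Entrez Gene 19106) had 2550 counts with siBcat1 and 3656 with siControl, or 25.2 CPM with siBcat1 against 27.8 CPM with siControl, and a log2 fold of -0.14 [-0.22 to -0.07] that turned to 0.28 after removal of the length trend. Adar encodes the deaminase that edits adenosine to inosine in duplex RNA and so limits its detection (chromosome 3, 89715022 to 89753446, plus strand). It (Entrez Gene 56417) had 3290 counts with siBcat1 and 4251 with siControl, or 32.5 CPM with siBcat1 against 32.3 CPM with siControl. The log2 fold was 0.01 [-0.06 to 0.07], with -0.45 on the log2(TPM + 1) scale and 0.59 after removal of the length trend. Both genes lay within 0.1 of the median of all genes under the count and TPM scalings. Counts per gene do not separate the interferon-inducible long isoform of Adar from the constitutive short one.

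Mavs, the adaptor that RIG-I and MDA5 share, was the member with the lowest log2 fold. The gene (Entrez Gene 228607, chromosome 2, 131234063 to 131248025, plus strand) had 1788 counts with siBcat1 and 3408 with siControl, or 17.7 CPM with siBcat1 against 25.9 CPM with siControl. The log2 fold was -0.55 [-0.64 to -0.47], 1.47-fold lower with siBcat1, and it was below 0 in each of the 8 settings tried, from -1.04 to -0.43. In TPM it had 8.82 with siBcat1 and 18.2 with siControl. It was in place 5 of the 10 genes with siBcat1, where its counting interval overlapped that of Eif2ak2 next below, and in place 3 with siControl. Relative to the median of all genes its difference was -0.49, and 73.3% of genes had a value as high or higher, so the same difference was common among genes at large.

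Tbk1 and Irf3, the kinase and its transcription factor, had scaled counts about 1.4-fold higher with siBcat1 and nearly equal TPM in both libraries. Tbk1 (Entrez Gene 56480, chromosome 10, 121546455 to 121586787, minus strand) had 4174 counts with siBcat1 and 3800 with siControl, or 41.2 CPM with siBcat1 against 28.9 CPM with siControl, and a log2 fold of 0.51 [0.45 to 0.57]. Irf3 (Entrez Gene 54131, chromosome 7, 44997648 to 45002848, plus strand) had 4575 counts with siBcat1 and 4330 with siControl, or 45.2 CPM with siBcat1 against 32.9 CPM with siControl, and a log2 fold of 0.46 [0.39 to 0.52], with -0.06 on the log2(TPM + 1) scale. TPM was 19.9 with siBcat1 and 19.8 with siControl for Tbk1, and 32.0 with siBcat1 and 33.4 with siControl for Irf3. Relative to the median of all genes, Tbk1 was 0.57 and Irf3 0.52 higher in scaled counts, and 0.53 and 0.46 higher with log2(TPM + 1). The difference of the folds, Irf3 less Tbk1, was -0.06 [-0.14 to 0.03], and -0.35 after removal of the length trend. Irf3 was the most abundant of the 10 genes per transcript length in both libraries.

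The spread of levels among the 10 genes was 8.70-fold in TPM with siBcat1 and 11.0-fold with siControl. With siControl no neighbours in the order of TPM had overlapping counting intervals, and with siBcat1 Mavs could not be ordered against Eif2ak2, nor Eif2ak2 against Adar. Summed over the 10 genes, TPM was 136 with siBcat1 and 132 with siControl, nearly equal totals of different make-up. In scaled counts the sum was 277.8 CPM with siBcat1 and 216.5 CPM with siControl. Of the TPM sum, Zbp1 held 20.2% with siBcat1 and 5.13% with siControl, and Mavs held 6.48% with siBcat1 and 13.8% with siControl.

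A comparison of members with each other does not depend on the scaling of the counts. Each of the 5 sensors had a higher log2 fold than Mavs. The difference was smallest for Tlr3, at 0.77 [0.62 to 0.91], and was 1.13 [1.03 to 1.23] for Ddx58 and 1.23 [1.11 to 1.34] for Ifih1. It was 1.78 [1.59 to 1.96] for Dhx58 and 2.96 [2.79 to 3.13] for Zbp1. With TPM these differences ran from 0.75 to 3.07, and after removal of the length trend from 1.13 to 2.40. Per transcript length, Ddx58 stood at 1.87 times the Mavs level with siBcat1 and at 0.867 times with siControl. Zbp1 stood at 3.11 times with siBcat1 and 0.371 times with siControl, and the other 3 sensors were below Mavs in both libraries.

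**Figure D3:**
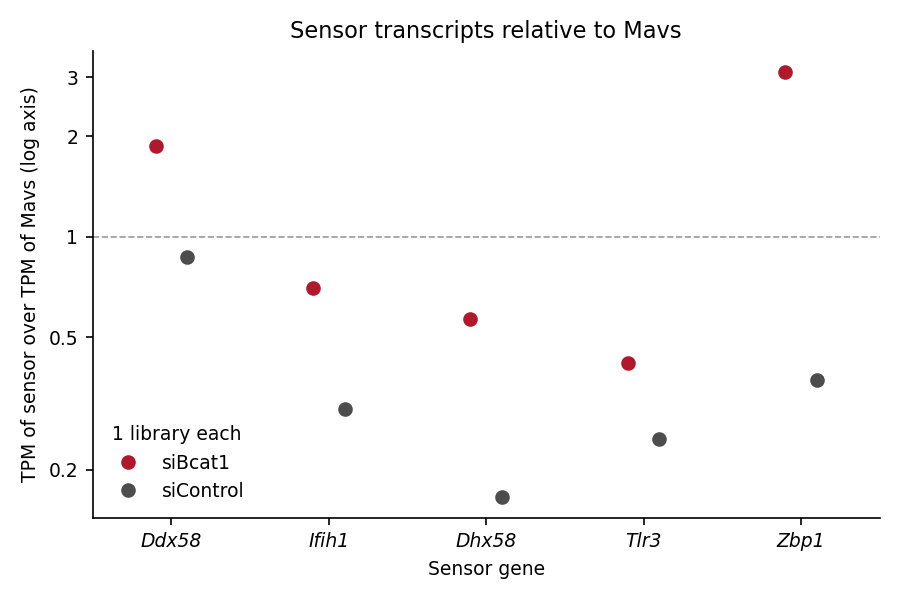
TPM of each sensor gene divided by the TPM of Mavs in the same library (vertical log axis), for siBcat1 (red, left) and siControl (grey, right). All 5 ratios are higher with siBcat1, and those of Ddx58 and Zbp1 lie above 1 with siBcat1 and below 1 with siControl.

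Transcript length ordered the folds of all genes in these libraries, and the members differ in length. Over 9886 genes with a length, the Spearman correlation of log2 fold and length was -0.656; it is given across genes, which share both libraries and are not independent. Among the members, the trend at the gene's length ran from -0.59 for Adar, with a mean transcript of 5178 bases, to 0.49 for Zbp1, with 1380 bases. With the trend removed, Zbp1 had 1.92, Dhx58 1.15, Ifih1 1.14, Ddx58 0.91 and Tlr3 0.65. The helicase genes Dhx58 and Ifih1 were then nearly equal, and Ifih1 was at least 2-fold higher as well, against 4.14% of all genes on that scale, with none of the members 2-fold lower, against 5.28%. Tbk1 had 0.62, Adar 0.59, Eif2ak2 0.28, Irf3 0.27 and Mavs -0.48. Mavs alone of the members lay below the trend. With the trend on the length that counts and TPM jointly give, Ddx58 (1.10) was past 2-fold as well, making 4 members, against 3.87% of genes, and none was downward, against 5.36%.

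**Figure D4:**
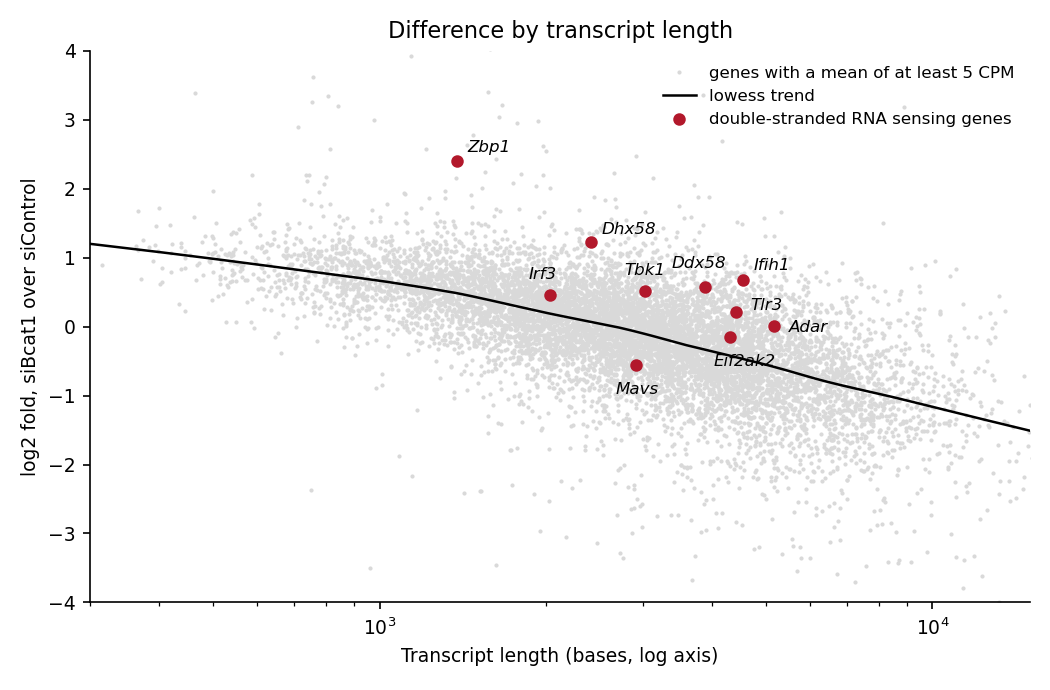
Log2 fold of siBcat1 over siControl (vertical axis) against transcript length in bases (horizontal log axis) for genes of 5 CPM or more on average (grey), the lowess trend (line) and the 10 named genes (red); 41 genes fall outside the axes. Mavs is the member below the line, and Zbp1 is the farthest above it.

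Genes that act beside the sensors were read from lists. In scaled counts, their numbers past 2-fold stand against 5.58% of all genes upward and 13.0% downward. Of 26 regulators and co-receptors of the sensors, 21 were measured, and none was past 2-fold in either direction. Their median was -0.10. After removal of the length trend it was 0.20, and 2 were past 2-fold upward, Trim25 (1.13) and G3bp1 (1.03), a stress granule protein. With the length that counts and TPM jointly give, Trim25 had 1.11 and G3bp1 0.21, so only Trim25 stayed past 2-fold. Before removal of either trend the largest differences were those of Dhx9, a nuclear RNA helicase, with -0.85 [-0.89 to -0.82], and Tarbp2, with 0.82 [0.76 to 0.89]. Tarbp2 encodes a double-stranded RNA binding partner of Dicer that restrains PKR. Mfn2, a mitochondrial fusion protein that binds MAVS, had -0.64, and Itch, a ubiquitin ligase that lowers MAVS, had -0.56. With the length trend removed, Dhx9 had -0.38, Tarbp2 0.35, Mfn2 -0.23 and Itch 0.04. The ubiquitin ligases that act on RIG-I are named for that role and were not chosen by size: Trim25 had 0.47 and Rnf135 0.50, and on the log2(TPM + 1) scale both lay within 0.1 of 0, which is 0.49 and 0.52 above the median of all genes on that scale. Rnf135 had 0.30 after removal of the length trend.

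Of 25 signalling proteins downstream of the adaptors, 23 were measured, 1 past 2-fold upward and 1 downward, with a median of -0.16. The median was 0.03 after removal of the length trend and -0.10 with the length that counts and TPM jointly give. It was below 0 in 9 of 10 alternatives. Irf7, the interferon-inducible relative of Irf3, had 3726 counts with siBcat1 and 1053 with siControl, a log2 fold of 2.20 [2.10 to 2.30]. Traf6, a ubiquitin ligase, had -1.10, the kinase gene Ripk1 -0.73 and Traf2 -0.64. After removal of the trend on transcript length these had -0.34, 0.07 and -0.66, and with the jointly given length -0.37, -0.29 and -0.51. Partners of single members were named for their role: Ticam1, the adaptor of Tlr3, had -0.45, and Ripk3 and Mlkl, which carry the necroptosis signal of Zbp1, had -0.16 and 0.30, the value of Mlkl with the opposite sign on the log2(TPM + 1) scale (-0.20). The folds of Zbp1 and Irf7 were of similar size, while these partners stayed within 2-fold.

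The OAS proteins make a second messenger from ATP when they bind double-stranded RNA. Of the list of 10 genes around them, 2 were measured, Oasl2 with 27.1 CPM with siBcat1 and 6.06 CPM with siControl (log2 fold 2.16 [2.04 to 2.27]) and Abce1, an ATP-binding protein of ribosome recycling, with -0.33. Below the minimum, Oas1a had 708 counts with siBcat1 and 165 with siControl, and Oas2 had 82 with siBcat1 and 12 with siControl. Oas3 was listed at 0 in both libraries. The Oas1 genes are near-identical copies whose reads the counting could have split, so single values are uncertain.

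All 8 interferon genes examined, among them Ifnb1, Ifna4 and Ifng, were listed at 0 in both libraries, where 3 counts would equal 0.0296 CPM with siBcat1 and 0.0228 CPM with siControl. Of 13 receptor and signalling genes, 12 were measured, 2 past 2-fold upward and 2 downward, with a median of 0.09. That median was below 0 with TPM and, at -0.0057, with library totals. Irf9, the DNA-binding part of the interferon-activated factor ISGF3, had 1.18 [1.12 to 1.25]. Usp18, a feedback inhibitor at the receptor, had 2382 counts with siBcat1 and 398 with siControl. With 23.5 CPM with siBcat1 and 3.03 CPM with siControl, Usp18 passed the minimum of 5 CPM through its level with siBcat1. The receptor kinase gene Tyk2 had -1.18 [-1.30 to -1.06] and the feedback inhibitor Socs3 -1.14 [-1.20 to -1.08]. With the length trend removed, Tyk2 had -0.66, within 2-fold, and Socs3 had -1.17. Of 9 targets of IRF3 and ISGF3, 4 were measured; Isg15, Ifit1 and Ifit3 had 3.26, 2.23 and 2.09, and Ifit2 was the exception with 1756 counts with siBcat1 and 3902 with siControl, a log2 fold of -0.78 [-0.86 to -0.69].

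Sensors of other nucleic acids and the relatives of PKR and Adar made up the remaining lists. Of 10 genes for DNA sensing and clearance, 9 were measured, and 1 was at least 2-fold higher: Ifi204, a DNA-binding protein from a family of close copies, with 1.41 [1.31 to 1.51]. Rnaseh2a and Rnaseh2c, subunits of the nuclease that removes RNA from DNA, had 0.74 and 0.57, and Trex1, a DNA exonuclease, had 0.61; of these, Rnaseh2c (-0.03) and Trex1 (-0.02) had the opposite sign after removal of the length trend. On the list of endosomal Toll-like receptors and their helpers, Tlr8 and Tlr9 were listed at 0 in both libraries, and Tlr7 had 0 counts with siBcat1 and 20 with siControl. The 6 helpers measured were lower, with a median of -0.54 and the lowest value in Irak1, a kinase under MyD88, with -1.02 [-1.09 to -0.96]; Cnpy3, a chaperone of the receptors, had -0.71, Irak4 -0.56 and Slc15a4 -0.52. The other eIF2alpha kinases had lower values than Eif2ak2: Eif2ak4 -1.27 [-1.39 to -1.15], Eif2ak1 -0.60 and Eif2ak3 -0.39, with -0.71, -0.17 and -0.37 after removal of the length trend. With the length that counts and TPM jointly give, Eif2ak4 had -0.69, Eif2ak1 -0.62 and Eif2ak3 0.03. Ppp1r15b, a subunit of the phosphatase that reverses these kinases, had -0.99 before and -0.33 after removal of the trend on transcript length. Adarb1, which encodes the second editing deaminase, had 1168 counts with siBcat1 and 5441 with siControl, a log2 fold of -1.84 [-1.94 to -1.75] and -1.03 after removal of the trend, where Adar had 0.59; Adat2, a deaminase of transfer RNA, had 0.11 before and -0.33 after it.

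**Figure D5:**
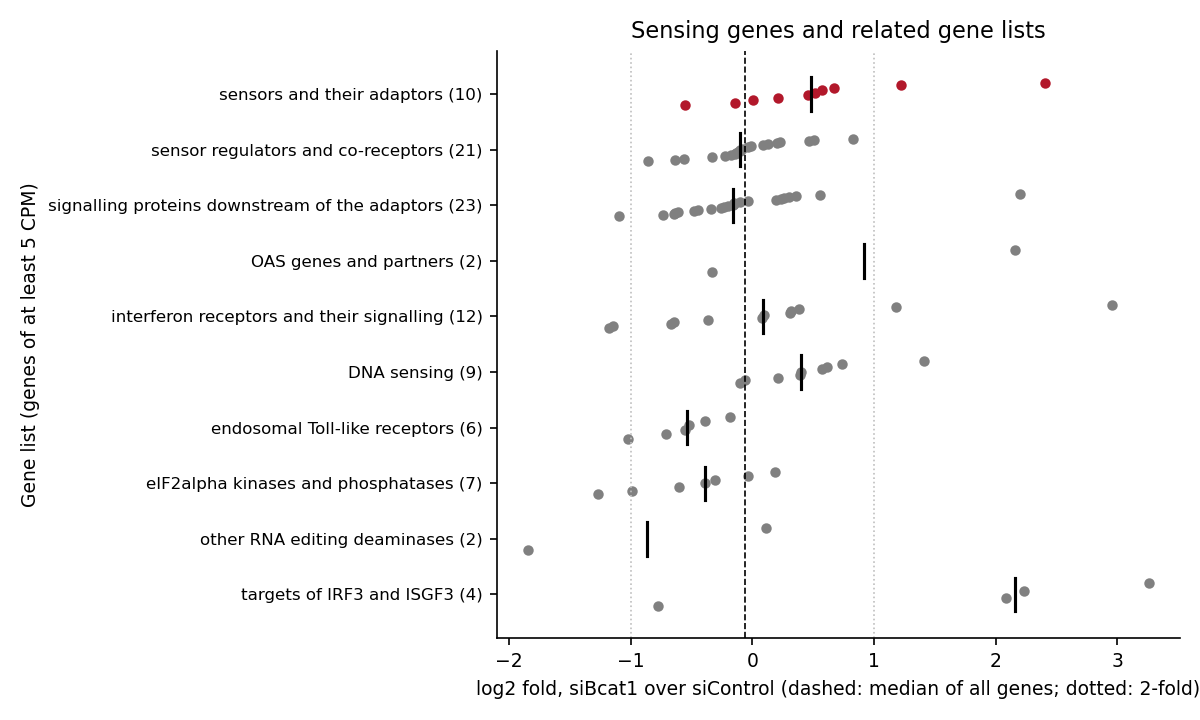
Log2 fold of siBcat1 over siControl (horizontal axis) for the measured genes of each list (rows, number in brackets), with the list's median as a bar, the median of all genes dashed and 2-fold dotted. The members (red, top row) run from -0.55 to 2.41, and the regulators of the sensors lie within 2-fold.

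The listed genes nearest to Ddx58 in log2 fold were Rnaseh2c, Tnfaip3, which encodes an inhibitor of NF-kappaB, and Trex1, with absolute differences of at most 0.037. With 2 libraries a gene has 1 difference, so this says nothing of a shared pattern. Among the 281 tested genes other than members whose reference promoter held the 2-base form, 27 (9.61%) were past 2-fold upward with siBcat1 and 30 (10.7%) downward, against 5.36% and 12.7% of the 7746 tested genes with a promoter in the table. The 7746 genes include these 281 and the members with a promoter. The median log2 fold of the 281 was 0.03, against -0.06. With the length trend removed it was 0.05, against 0.001 over all tested genes with a length. For the 1-base form, 7.73% of 233 tested genes other than members were upward and 9.87% downward. Their median was within 0.01 of 0, and 0.04 with the length trend removed. Of the members with the 2-base form, Ddx58 and Ifih1 were higher and Eif2ak2, with -0.14, was not, although it had 0.28 after removal of the length trend. Of those with the 1-base form, Ddx58 was higher and Adar had 0.01, or 0.59 after removal of the length trend. Exons of Adar share 1365 bases with Chrnb2 on the opposite strand, which had 5 counts with siBcat1 and 18 with siControl. Those of Irf3 share 88 bases with Bcl2l12. Tlr3 shares 381 exonic bases with Gm45542, Dhx58 141 with Dhx58os, and Eif2ak2 174 with Gm26637 and 47 with n-R5s29. The partners of Tlr3, Dhx58 and Eif2ak2 also lie on the opposite strand and have no counts listed. The sources do not say whether strand was used in counting.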

How the data were processed

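RNA from 1 siBcat1 and 1 siControl culture was sequenced from stranded mRNA libraries, per the labels' protocols. FastQC, Trimmomatic, HISAT2, StringTie and build mm10 are named without versions, per the submitters' processing notes. The authors deposited unnormalized whole-number read counts by gene, and TPM values, per the file headers. Whether the counts were taken directly or derived from coverage is not given in the sources used here; 102 genes listed at 0 with siBcat1 had at least 20 counts with siControl, and 56 the reverse, so a listed 0 may be no measured 0.

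Counts were scaled with TMM factors, 0.969 for siBcat1 and 1.03 for siControl, from edgeR 4.0.16 in R 4.3.3. Intervals are exact (Clopper-Pearson), or Wald intervals for differences of 2 folds. Genes were kept at a mean CPM of 5 or more. A lowess trend (fraction 0.3, 3 iterations, statsmodels 0.14.6) on GENCODE M21 transcript length (GRCm38, mean of transcripts matched by RefSeq accession) was subtracted for length-adjusted folds. As alternatives, library totals, size factors of DESeq2 1.42.0 and upper-quartile factors were used, as were log2(TPM + 1), log2(TPM + 0.1), other minimums and thresholds, and lengths implied by counts and TPM. The calculations were checked on simulated data. Named genes were the members, Bcat1, up to 4 measured genes a list with the largest absolute fold, the 3 nearest to Ddx58 in fold, and genes named for their role as the text says. The members and lists were chosen with earlier results of these data known. A planned comparison of protein sequences was not made, and the value of 1 listed gene is not reported here.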

Additional observations from a re-analysis of the deposited data

How the results depend on the processing

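The 2 members at least 2-fold higher, Zbp1 and Dhx58, were 2 under DESeq2 size factors, library totals, upper-quartile factors, a minimum of 1 CPM, no minimum, and whole intervals past 2-fold. The count was 1 with log2(TPM + 1), log2(TPM + 0.1) and at 3-fold, 3 at 1.5-fold or with the length trend removed, 4 with an implied length (from counts and TPM), and 0 at a minimum of 20 CPM, which removes both genes. No member was at least 2-fold lower except 1 (Mavs, -1.04) with log2(TPM + 0.1). The median of the members was 0.39 with library totals, 0.61 under upper-quartile factors, -0.0269 with log2(TPM + 1), -0.0276 with log2(TPM + 0.1), 0.64 with the length trend removed, 0.67 with the implied length and 0.23 at a minimum of 20 CPM. Relative to the median of all genes it lay between 0.49 and 0.67 under the 8 scales at a minimum of 5 CPM. Of 70 single-gene values under the 7 other scales, 18 stayed within the counting interval of the value reported and 52 did not. Zbp1 and Dhx58 kept their sign. Tlr3 and Irf3 were below 0 with TPM, Adar with TPM and library totals, and Eif2ak2 was above 0 only with a length trend removed. No paired analysis was possible because each group has 1 library. The comparisons are limited by 1 library per group, by the choice of scale and by the length trend.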
